A study of Mus musculus with 18 samples.

Results

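Among 18 mouse RNA-seq libraries, the 6 that carry the mutant PIK3CA allele alone (E20) are compared here with each other: libraries 1 to 3 against libraries 4 to 6. All 6 have 1 label for genotype, an LSL-PIK3CAH1047R allele, and 1 label for tissue, squamous epithelium of the tongue. The sets were chosen by the expression values of these same libraries, which separate them, so every difference between them is a description without a test. LSL is a stop cassette between loxP sites, and the allele behind it is read only in cells where Cre recombinase has cut the cassette out. The labels of E20 name no Cre driver, and they give neither age nor sex nor the origin of the 2 sets. The other libraries are 3 from tongue with 1 p53 R172H allele behind the same kind of cassette (p53), 6 from tongue with both alleles and K14-Cre (E20/p53), in which Cre is driven by the promoter of the basal keratin Krt14, and 3 from wild type oesophagus (WT). Nothing states that libraries of a group came from separate animals or cultures, so the spread within a set may be technical.

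PIK3CA encodes p110 alpha, the catalytic subunit of phosphoinositide 3-kinase, which makes the membrane lipid that recruits AKT. H1047R lies in the kinase domain and raises its activity. Stratified squamous epithelium of the tongue is built by keratinocytes, which make Krt5 and Krt14 in the basal layer, and rests on a connective tissue of fibroblasts, which make type I collagen from Col1a1 and Col1a2. In bulk RNA, fewer cells of a type and less RNA per cell cannot be told apart.

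The 6 E20 libraries held 14769794 to 17836826 counted reads, within the range of all 18. Levels are given as reads scaled to a common library total, as the deposited values are (CPM), and differences as log2 of the level in libraries 4 to 6 minus that in 1 to 3, with 1 read added to each value. Pik3ca had 76.8, 80.3 and 79.3 CPM in libraries 1 to 3 and 94.3, 97.2 and 98.9 CPM in libraries 4 to 6, so the sets did not overlap but differed by only 0.30 on the log2 scale. This transcript level does not show whether the allele was recombined. Trp53 had 181, 199.8 and 180.2 CPM in libraries 1 to 3 and 197, 193 and 208 CPM in libraries 4 to 6, and the sets overlapped. Xist, the RNA that coats the silenced X in female cells, had 871, 815 and 992 CPM in libraries 1 to 3 and 1269, 1349.6 and 1292 CPM in libraries 4 to 6, and the Y-linked Eif2s3y had 0 reads in each of the 6. In the p53 libraries Xist was 0.172 ± 0.0693 CPM and Eif2s3y 95.3 ± 4.78 CPM (SD, n = 3), so the E20 sets resembled each other and not p53 in these sex-linked genes.

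Across 15235 genes, the means of the 2 E20 sets correlated with r = 0.947, which describes genes of these libraries and is no test. Libraries 1 to 3 had r = 0.937 with E20/p53 libraries 4 to 6, 0.928 with p53, 0.861 with E20/p53 libraries 1 to 3 and 0.822 with WT. Libraries 4 to 6 gave 0.913, 0.905, 0.832 and 0.818 in the same order. Inside a set the median SD of a gene was 0.0787 log2 units in libraries 1 to 3 and 0.0715 in 4 to 6, while the median absolute difference between the sets was 0.318. Of 13562 genes past the filter on low values (0.646 CPM, which is 10 reads at the median depth, in at least 3 of the 6), 71.8% had no overlap between the sets. Without regard to size, 4897 of the 13562 genes were higher in libraries 4 to 6 without overlap and 4838 lower. Among the genes without overlap, 849 (6.26% of those past the filter) were at least 2-fold higher in libraries 4 to 6 and 1139 (8.4%) at least 2-fold lower, which makes 14.7% in both directions. These shares are the background for each gene list below. The filter asks for only 3 of the 6 libraries, so a gene near 0 in a set passes through the other set alone. The direction of such a gene is fixed by the filter. Counts and medians of lists that hold such genes, the keratinocyte, Hox, Wnt, Notch and BMP lists among them, are a description and no support. The median difference over all genes was -0.0029.

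**Figure D1:**
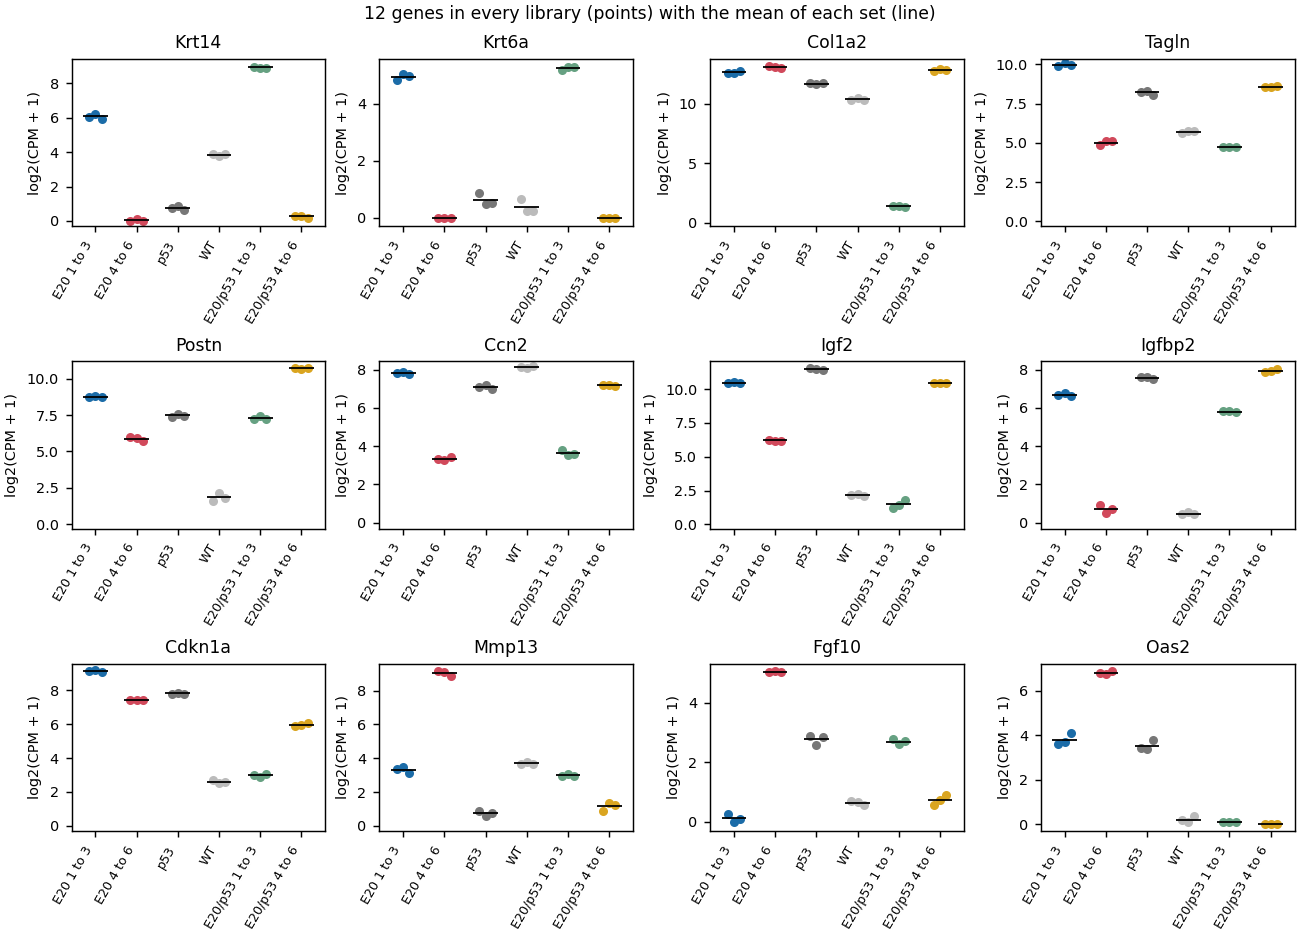
Levels of 12 genes as log2(CPM + 1) in all 18 libraries, 1 point per library, with the mean of each set of 3 as a line. E20 libraries 1 to 3 (blue) and 4 to 6 (red) lie apart in each panel, while the points of a set lie close together.

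Several squamous keratins, among them Krt14, Krt5 and Krt6a, were present in libraries 1 to 3 and at or near 0 in libraries 4 to 6, against a tissue label that is the same for both. Krt14, the basal keratin (chr11:100203162-100207548, minus strand), had 65.3, 74.4 and 59.96 CPM in libraries 1 to 3 and 0, 0.0667 and 0 CPM in libraries 4 to 6, where the second set holds 1 read in all. Its partner Krt5 had 7.09, 7.48 and 4.97 CPM in libraries 1 to 3 and 0.0677, 0 and 0 CPM in libraries 4 to 6. Both keratins thus stood well apart between the sets, and in p53 Krt14 had 0.695 ± 0.142 CPM (SD, n = 3), between the 2 sets. Krt6a, a keratin of activated epithelium, had 27.4, 31.9 and 30.6 CPM in libraries 1 to 3 and 0 CPM in each of libraries 4 to 6, a level at least 444-fold higher in libraries 1 to 3 against a floor of 3 reads over the set. Krt10, a suprabasal keratin, did not follow them and had 6.48, 7.77 and 6.67 CPM in libraries 1 to 3 and 5.14, 5.07 and 4.81 CPM in libraries 4 to 6, under 2-fold lower. Perp, a desmosome protein, had 33.9, 33.3 and 30.8 CPM in libraries 1 to 3 and 0.203, 0.400 and 0.275 CPM in libraries 4 to 6. Pitx1, a homeobox factor of the oral epithelium and hindlimb, had 8.52, 9.70 and 8.24 CPM in libraries 1 to 3 and 0.0677, 0.133 and 0.0687 CPM in libraries 4 to 6, with no overlap. Trp63, the master factor of stratified epithelium, had 15.6, 15.95 and 15.6 CPM in libraries 1 to 3 and 3.18, 3.54 and 3.16 CPM in libraries 4 to 6, so it was 4.77-fold lower in the second set but still counted there.

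Of 15 basal keratinocyte markers, 14 passed the filter, 9 were at least 2-fold lower in libraries 4 to 6 and 0 higher, with a median of -3.50. The summed level of this list nevertheless hardly differed, at 440.5 to 474 CPM in libraries 1 to 3 and 477 to 501 CPM in 4 to 6, and its largest part was Dst, a cytolinker that fibroblasts also make, with 253, 241 and 295 CPM in libraries 1 to 3 and 457, 465 and 437 CPM in libraries 4 to 6. Dst lies on chromosome 1, whose genes as a whole were higher in the second set (below), and what raised it was not tested. Of 22 suprabasal and cornified markers, only 8 passed the filter, of which 7 were 2-fold lower and 0 higher, with a median of -4.89 (-4.87 with the 3 genes at 0 reads placed at their bounds). Those 3 genes passed the filter through libraries 1 to 3 alone, which fixed their direction. Their summed level was 82.8 to 88.5 CPM in libraries 1 to 3 and 7.92 to 8.48 CPM in 4 to 6. Genes of simple epithelium were scarce in both sets: Epcam had at most 0.0681 CPM in libraries 1 to 3 and 0 in 4 to 6, and Cdh1, which encodes E-cadherin, had at most 0.273 and 0 CPM. The E20/p53 libraries 1 to 3 held 483 ± 10.6 CPM of Krt14 (SD, n = 3), above both E20 sets.

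Fibroblast genes were high in both E20 sets. Col1a2 (chr6:4504814-4541544, plus strand) had 6079, 6266 and 6749 CPM in libraries 1 to 3 and 9203, 8519.9 and 8179 CPM in libraries 4 to 6, and Col1a1 had 4870.0, 4993 and 5831 CPM in libraries 1 to 3 and 4642, 5376 and 5018 CPM in libraries 4 to 6, with overlap between the sets. Chromosome 6, where Col1a2 lies, was higher as a whole in the second set (below), with a median of 1.46-fold. E20/p53 libraries 1 to 3 had only 1.58 ± 0.0573 CPM of Col1a2 (SD, n = 3). The E20 libraries therefore all carried abundant collagen mRNA under a label of squamous epithelium, with or without keratin mRNA beside it. This was not particular to E20. The 18 collagens listed summed to 24382.5 to 27234.8 CPM in E20 libraries 1 to 3 and 25266.9 to 27082 CPM in 4 to 6. They summed to 27156.1 to 29568.5 CPM in E20/p53 libraries 4 to 6 and 13873.1 to 15227.1 CPM in p53. Of 16 fibroblast markers 13 passed the filter, 3 were 2-fold higher in libraries 4 to 6 and 3 lower, with a median of -0.022. Prrx1, a mesenchymal homeobox factor, had 456, 462 and 471 CPM in libraries 1 to 3 and 523, 539 and 537 CPM in libraries 4 to 6. Pdgfra, the receptor for platelet-derived growth factor on fibroblasts, had 59.5, 58.4 and 63.5 CPM in libraries 1 to 3 and 199, 188 and 176 CPM in libraries 4 to 6, without overlap. Dcn, a small leucine-rich proteoglycan of the matrix, had 184, 194 and 169.9 CPM in libraries 1 to 3 and 92.3, 90.2 and 85.7 CPM in libraries 4 to 6, lower in each of the second set. Mfap5, a microfibril protein, was 16.5-fold lower there, at 21.7 ± 0.462 CPM in libraries 1 to 3 and 1.31 ± 0.154 CPM in 4 to 6.

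Of 17 collagen genes past the filter, 1 was 2-fold higher and 2 lower, with a median of -0.06. The 1 higher gene was Col6a3, a chain of the beaded filaments around cells, with 236, 237 and 277 CPM in libraries 1 to 3 and 1516, 1493 and 1439.9 CPM in libraries 4 to 6. It was 5.93-fold higher and lies on chromosome 1, whose genes as a whole were higher in the second set (below), with a median of 1.46-fold. The part of the chromosome in this difference was not tested. Col3a1 had 5692, 5927 and 6128 CPM in libraries 1 to 3 and 5158, 4804 and 4542 CPM in libraries 4 to 6, and the sets differed by -0.29.

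Of 11 smooth muscle and myofibroblast genes past the filter, 7 were 2-fold lower in libraries 4 to 6 and 1 was higher. Tagln, an actin-binding protein of smooth muscle and myofibroblasts, had 950.1, 1071 and 980.0 CPM in libraries 1 to 3 and 27.6, 33.8 and 33.2 CPM in libraries 4 to 6, a 31.7-fold difference with no overlap. Acta2, smooth muscle actin, had 3536, 3743 and 3507 CPM in libraries 1 to 3 and 893, 929 and 905 CPM in libraries 4 to 6. Cnn1, a calponin that binds actin and myosin, had 12.5, 14.2 and 12.9 CPM in libraries 1 to 3 and 0.203, 0.400 and 0.137 CPM in libraries 4 to 6. The list holds 12 genes, its median was -1.36, and the summed level was 6919.8 to 7463 CPM in libraries 1 to 3 and 2472 to 2535 CPM in 4 to 6. The higher gene was Mylk, the kinase of the myosin light chain, with 16.97, 19.5 and 19.8 CPM in libraries 1 to 3 and 80.96, 79.03 and 76.4 CPM in libraries 4 to 6. Of 18 skeletal muscle genes 12 passed, with 1 higher and 2 lower. The muscle cadherin Cdh15 had 135, 146 and 146 CPM in libraries 1 to 3 and 21.4, 24.4 and 22.5 CPM in libraries 4 to 6, and the subunit of the acetylcholine receptor Chrna1 had 153 ± 1.77 CPM in libraries 1 to 3 and 46.2 ± 2.15 CPM in 4 to 6 (SD, n = 3 each). The higher gene was Ttn, the giant protein of the sarcomere, with 0.620 CPM in the mean of libraries 1 to 3 and 2.32 CPM in that of 4 to 6. Outside the list, and chosen after their values were seen, the receptor subunits Chrnd and Chrng went the other way from Chrna1: Chrnd had 2.68 CPM in the mean of libraries 1 to 3 and 17.2 CPM in that of 4 to 6, and Chrng had 1.41 CPM in the mean of libraries 1 to 3 and 4.78 CPM in that of 4 to 6. Chrnd lies on chromosome 1, whose genes as a whole were higher in the second set (below). Myod1 was at or under 0.203 CPM in all 6. Markers of endothelium (3 of 10 past the filter) and leukocytes (5 of 12) were low in both sets. The summed level of the endothelial list was 4.56 to 5.31 CPM in libraries 1 to 3 and 9.89 to 11.03 CPM in 4 to 6, and that of the leukocyte list 31.9 to 35.4 CPM in libraries 1 to 3 and 19.8 to 22.2 CPM in 4 to 6. The leukocyte antigen Ptprc had at most 0.0681 CPM in libraries 1 to 3 and 0 in 4 to 6. The part of these cell types in the differences that follow was not tested.

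Matricellular proteins, which signal to cells from the matrix, differed gene by gene. Ccn2, a target of YAP and TGF-beta signalling, had 221, 231 and 219 CPM in libraries 1 to 3 and 9.07, 8.81 and 9.68 CPM in libraries 4 to 6, 24.3-fold lower in the second set. Its relative Ccn1 had 474, 501 and 473 CPM in libraries 1 to 3 and 104, 112 and 111 CPM in libraries 4 to 6. Postn, the matrix protein periostin, had 422, 448 and 433 CPM in libraries 1 to 3 and 63.4, 58.9 and 52.5 CPM in libraries 4 to 6, again without overlap. Of 21 genes on this list 7 were 2-fold lower and 2 higher, with a median of -0.49. Lama4, a laminin chain of vessel and muscle basement membranes, was among the higher ones at 55.9 ± 5.01 CPM in libraries 1 to 3 and 197 ± 15.1 CPM in 4 to 6.

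Matrix proteases and their inhibitors gave no common direction. Mmp13 (chr9:7272514-7283331, plus strand), a collagenase, had 9.47, 9.99 and 7.62 CPM in libraries 1 to 3 and 568, 539.5 and 455 CPM in libraries 4 to 6, 57.7-fold higher in the second set. Mmp3, stromelysin, had 13.02, 14.7 and 12.9 CPM in libraries 1 to 3 and 144, 129.95 and 117 CPM in libraries 4 to 6. Mmp9, a gelatinase, had 6.68, 7.83 and 7.76 CPM in libraries 1 to 3 and 39.9, 36.8 and 30.9 CPM in libraries 4 to 6. These 3 proteases were higher in each library of 4 to 6 than in any of 1 to 3. Timp3, an inhibitor bound to the matrix, had 485, 478 and 501 CPM in libraries 1 to 3 and 98.97, 100.3 and 105 CPM in libraries 4 to 6, lower in each. Other proteases were lower as well: the plasminogen activator Plau had 271 CPM in the mean of libraries 1 to 3 and 124 CPM in that of 4 to 6, and Adamts5, which cleaves proteoglycans, had 234 CPM in the mean of libraries 1 to 3 and 88.02 CPM in that of 4 to 6. Of 18 genes past the filter 5 were 2-fold higher and 5 lower, with a median of -0.23. Over the 17 genes outside chromosomes 1 and 6 the median was -0.016, a change made by leaving out a single gene.

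**Figure D2:**
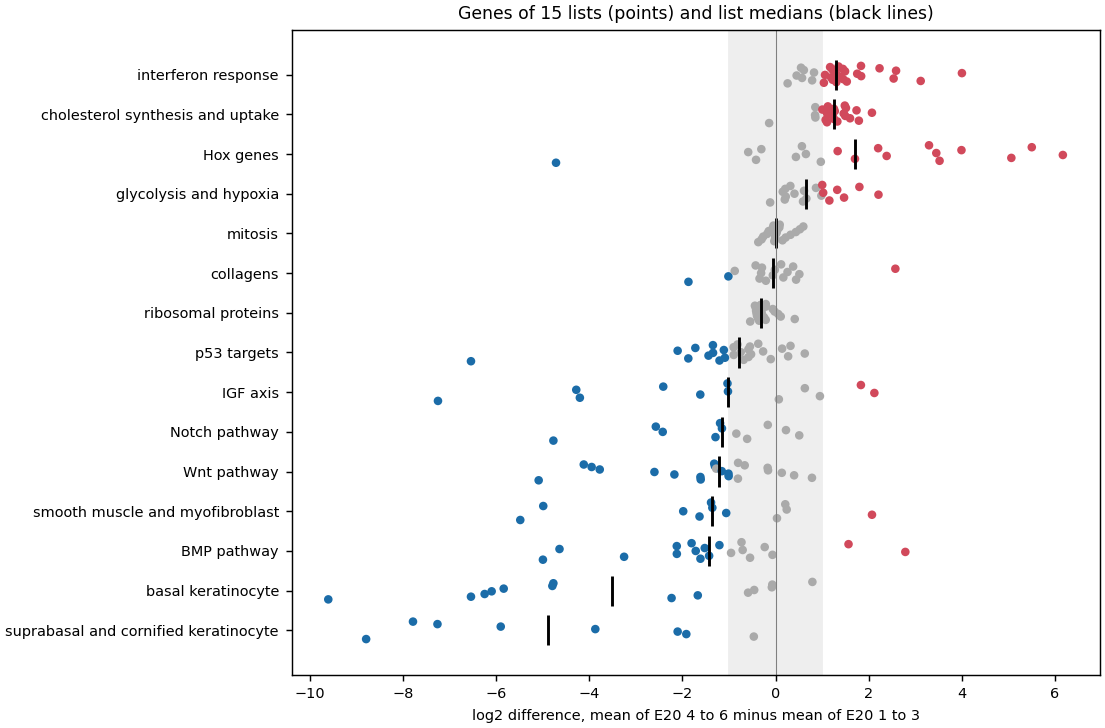
Log2 difference, mean of E20 libraries 4 to 6 minus mean of 1 to 3, for each gene past the filter (points) on 15 gene lists, with the list median as a black line and the band of less than 2-fold in grey. Interferon, cholesterol and Hox genes lie to the right, keratinocyte, BMP, Wnt and contractile genes to the left, and mitosis genes inside the band.

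Interferon response genes were higher in libraries 4 to 6. Type I interferon acts through a transcription factor complex with STAT2 and IRF9 that binds the interferon-stimulated response element (ISRE) in the promoters of antiviral genes. All 30 genes of the list passed the filter and were higher without overlap, against 4897 of 13562 over all genes. Among these 30, 23 were at least 2-fold higher and 0 lower, with a median of 1.31. Only 2 of them lie on chromosomes 1 and 6, and the median over the other 28 was 1.29. The summed level of the list was 2287 to 3017 CPM in libraries 1 to 3 and 5835 to 6231 CPM in 4 to 6, against 1273 to 1448 CPM in p53.

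The promoter stretches of 3 genes are shown because they carry the ISRE core. They come from RefSeq on GRCm38.p6, written 5′ to 3′ on the strand of the gene. The capitals mark the core, which is GAAA, any 2 bases and GAAA again, or the same on the other strand, TTTC, any 2 bases and TTTC. Rsad2 is chr12:26456518-26456617 on the minus strand, Ifit1 is chr19:34640740-34640858 on the plus strand, and Oas1g is chr5:120887614-120887676 on the minus strand.
Rsad2: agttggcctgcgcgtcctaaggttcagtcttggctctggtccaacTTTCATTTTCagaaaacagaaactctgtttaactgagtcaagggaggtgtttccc
Ifit1: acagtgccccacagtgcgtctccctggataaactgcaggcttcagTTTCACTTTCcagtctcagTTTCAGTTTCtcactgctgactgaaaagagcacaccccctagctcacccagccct
Oas1g: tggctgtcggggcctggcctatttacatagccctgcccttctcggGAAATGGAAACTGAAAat
In Oas1g 2 overlapping matches make up the capitals, and in Ifit1 they are separate. Of the list, 23 genes had a RefSeq promoter sequence, reaching from 250 bases before the start, and 15 of them held the core on either strand, against 3.44% of 32851 promoters. A match is a run of letters and not a measured binding site.

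Rsad2, the antiviral enzyme viperin, had 12.3, 16.01 and 19.9 CPM in libraries 1 to 3 and 83.2, 101 and 101 CPM in libraries 4 to 6. Oas2, which makes the activator of RNase L, had 11.2, 11.8 and 15.99 CPM in libraries 1 to 3 and 111, 108 and 116 CPM in libraries 4 to 6, and Oas1g had 15.9, 20.39 and 21.6 CPM in libraries 1 to 3 and 86.9, 90.3 and 93.3 CPM in libraries 4 to 6, with the caution that reads of close Oas1 copies can be split in counting. In both genes each library of the second set lay above all of the first. Ifit1, which binds viral RNA caps, had 143, 199 and 203 CPM in libraries 1 to 3 and 387, 411 and 430.4 CPM in libraries 4 to 6, and library 1 was the lowest of the 6. Isg15, a ubiquitin-like modifier, had 174, 248 and 259 CPM in libraries 1 to 3 and 296, 302 and 319.7 CPM in libraries 4 to 6, without overlap but under 2-fold, and it is 1 of the genes at the end of chromosome 4 described below. Within the first set, library 1 was the lowest in each of these 5 genes.

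Chemokines and cytokines were split, with 7 of 16 genes 2-fold higher, 2 lower and a median of 0.78 (0.49 outside chromosomes 1 and 6). Cxcl10, which attracts T cells and is itself induced by interferon, had 22.2, 32.5 and 29.2 CPM in libraries 1 to 3 and 140.1, 172 and 181 CPM in libraries 4 to 6. Cxcl5, which attracts neutrophils, had 929, 1005 and 919.9 CPM in libraries 1 to 3 and 2727, 3004 and 2654 CPM in libraries 4 to 6. Cxcl12, the ligand of CXCR4 made by stromal cells, had 154, 148 and 146 CPM in libraries 1 to 3 and 551, 530.4 and 514 CPM in libraries 4 to 6. All 3 lay without overlap, and Cxcl12 is a gene of chromosome 6. MHC class I genes differed less, with 8 of 11 higher without overlap (4897 of 13562 over all genes), 0 past 2-fold and a median of 0.34.

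Cholesterol synthesis genes were also higher in libraries 4 to 6. SREBP2, encoded by Srebf2, turns on the enzymes of this pathway when sterols are scarce, through a sterol response element (SRE). Of 23 genes, all past the filter, 19 were at least 2-fold higher and 0 lower, with a median of 1.25, and the summed level was 2308 to 2366 CPM in libraries 1 to 3 and 5254 to 5321 CPM in 4 to 6. Hmgcs1, the synthase that feeds the pathway, had 239.5, 223 and 229 CPM in libraries 1 to 3 and 492, 512 and 501 CPM in libraries 4 to 6. Idi1, the isomerase of its 5-carbon units, had 97.5, 97.1 and 98.6 CPM in libraries 1 to 3 and 290.3, 294 and 303 CPM in libraries 4 to 6, 3.03-fold higher. Lss, which closes the first sterol ring system, had 50.03, 52.1 and 51.9 CPM in libraries 1 to 3 and 175, 169 and 169.6 CPM in libraries 4 to 6. Each of these 3 enzymes was more than 2-fold higher. Stard4, a sterol carrier, had 34.3, 30.8 and 37.3 CPM in libraries 1 to 3 and 144, 145 and 140.1 CPM in libraries 4 to 6, the largest difference of the list. Only Hmgcs1 of 15 list genes with a RefSeq promoter held the SRE core TCACNCCAC on either strand, against 1.24% of all promoters. That stretch, chr13:119690169-119690267 on the plus strand of GRCm38.p6, is shown with the core in capitals.
Hmgcs1: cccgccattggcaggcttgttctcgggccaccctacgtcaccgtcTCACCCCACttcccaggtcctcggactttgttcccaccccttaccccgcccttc

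Of 19 genes of glycolysis and the hypoxia response, 17 were higher without overlap, 7 of them 2-fold or more, and 0 were 2-fold lower, with a median of 0.66. Over all genes past the filter, 4897 of 13562 were higher without overlap. Egln3, the prolyl hydroxylase that HIF induces, had 56.4, 54.9 and 50.5 CPM in libraries 1 to 3 and 261, 240.0 and 247 CPM in libraries 4 to 6. Bnip3, a mitophagy receptor, had 67.96, 69.6 and 64.7 CPM in libraries 1 to 3 and 230.0, 226.9 and 248 CPM in libraries 4 to 6. Both were past 2-fold. Slc2a1, the glucose transporter GLUT1, had 65.4, 70.7 and 65.7 CPM in libraries 1 to 3 and 129, 134 and 136 CPM in libraries 4 to 6, just under 2-fold. Ldha, a subunit of lactate dehydrogenase, had 1535, 1634 and 1497 CPM in libraries 1 to 3 and 1844, 1761 and 1821 CPM in libraries 4 to 6, 1.16-fold higher. Among these 4 genes, Egln3 differed most and Ldha least. Respiratory chain genes had a median of 0.16 (0.069 outside chromosomes 1 and 6) with 0 of 22 past 2-fold, and ribosomal proteins -0.30 with 0 of 22.

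Of 26 targets of p53 past the filter, 10 were 2-fold lower in libraries 4 to 6 and 0 higher, while Trp53 mRNA overlapped. Without regard to size, 22 were lower and 3 higher with no overlap, against 4838 lower and 4897 higher of 13562 over all genes. Neither set carries a mutant p53 allele by its labels. Cdkn1a, the CDK inhibitor p21, had 557, 598 and 547 CPM in libraries 1 to 3 and 173, 173 and 169 CPM in libraries 4 to 6, 3.30-fold lower with no overlap. Mdm2, the ligase that degrades p53, had 206, 213 and 195 CPM in libraries 1 to 3 and 110.1, 109.5 and 109 CPM in libraries 4 to 6. Ccng1, a cyclin that p53 induces, had 481, 482 and 471 CPM in libraries 1 to 3 and 220.0, 229 and 225 CPM in libraries 4 to 6. All 3 were lower in every library of 4 to 6 than in any of 1 to 3. Eda2r, a receptor of the TNF family, had 79.4 ± 0.932 CPM in libraries 1 to 3 and 29.3 ± 2.65 CPM in 4 to 6, and Pmaip1, the apoptosis protein NOXA, had 17.1 ± 0.279 CPM in libraries 1 to 3 and 4.63 ± 0.274 CPM in 4 to 6 (SD, n = 3 each). Sesn1, a stress-induced sestrin, had the largest upward difference of the list, with 32.9 CPM in the mean of libraries 1 to 3 and 50.9 CPM in that of 4 to 6. The median of the list was -0.78 (-0.90 outside chromosomes 1 and 6). Perp and Sfn, 2 of the 10, are also keratinocyte genes. In the p53 libraries, which carry R172H, Cdkn1a was 226 ± 5.0004 CPM and Mdm2 107 ± 8.08 CPM.

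Of 13 PI3-kinase subunit and phosphatase genes past the filter, 1 was 2-fold higher and 2 lower. Pik3r5, a regulator of the gamma kinase, had 2.45, 3.16 and 2.18 CPM in libraries 1 to 3 and 15.6, 15.6 and 16.9 CPM in libraries 4 to 6, and Pik3r3, a regulatory subunit, had 235, 226 and 239 CPM in libraries 1 to 3 and 82.9, 88.2 and 84.7 CPM in libraries 4 to 6. Of 20 genes around AKT, mTOR and FOXO, 3 were 2-fold higher, among them the mTOR inhibitor Deptor at 15.6 ± 4.26 CPM in libraries 1 to 3 and 42.6 ± 0.997 CPM in 4 to 6 and Foxo4 at 22.2 ± 1.57 CPM in libraries 1 to 3 and 45.7 ± 1.25 CPM in 4 to 6. Mitosis genes did not differ by 2-fold in any of 20, with a median of 0.006, and Top2a, a topoisomerase of dividing cells, had 494, 482 and 507 CPM in libraries 1 to 3 and 507, 518 and 543 CPM in libraries 4 to 6. DNA replication genes had a median of -0.26 with 0 of 21 past 2-fold. Cdkn1b, the CDK inhibitor p27, was higher at 74.1 ± 4.80 CPM in libraries 1 to 3 and 151 ± 4.34 CPM in 4 to 6 and is a gene of chromosome 6.

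The IGF axis, whose ligands act through the receptor Igf1r on PI3-kinase, differed in its ligands and binding proteins. Igf2 (chr7:142650766-142666816, minus strand), an imprinted fetal growth factor, had 1371, 1463 and 1400.1 CPM in libraries 1 to 3 and 74.5, 72.5 and 70.8 CPM in libraries 4 to 6, 19.4-fold lower in the second set. The imprinted RNA H19 beside it had 1942, 2070.0 and 1886 CPM in libraries 1 to 3 and 623, 584 and 613 CPM in libraries 4 to 6. Igf1 had 63.1, 72.8 and 66.3 CPM in libraries 1 to 3 and 12.8, 12.8 and 12.2 CPM in libraries 4 to 6. All 3 transcripts were thus lower in each library of 4 to 6. Among the binding proteins, Igfbp2 had 101, 109 and 97.3 CPM in libraries 1 to 3 and 0.880, 0.400 and 0.618 CPM in libraries 4 to 6, while Igfbp5 had 819.5, 855 and 793 CPM in libraries 1 to 3 and 2821, 3091 and 2872 CPM in libraries 4 to 6, in the opposite direction. Igfbp2 and Igfbp5 both lie on chromosome 1. Pappa, the protease that frees IGF from binding proteins, had 7.94 ± 0.405 CPM in libraries 1 to 3 and 0.404 ± 0.238 CPM in 4 to 6. Of 12 genes 7 were 2-fold lower and 2 higher, with a median of -1.03.

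In the BMP pathway 11 of 19 genes past the filter were 2-fold lower and 2 higher, with a median of -1.43. The ligand Bmp4 had 106, 111 and 108 CPM in libraries 1 to 3 and 31.8, 31.4 and 29.7 CPM in libraries 4 to 6. The secreted antagonists Fst and Nog were lower too, Fst with 56.03, 62.7 and 52.5 CPM in libraries 1 to 3 and 1.35, 2.27 and 1.65 CPM in libraries 4 to 6 and Nog with 7.68 ± 0.726 CPM in libraries 1 to 3 and 0.248 ± 0.0746 CPM in 4 to 6. Id3, an inhibitor of helix-loop-helix factors that BMP induces, had 294, 318 and 277 CPM in libraries 1 to 3 and 70.3, 68.3 and 65.4 CPM in libraries 4 to 6, and Id1 had 45.7, 52.7 and 44.9 CPM in libraries 1 to 3 and 13.2, 17.5 and 16.2 CPM in libraries 4 to 6. Each of these 5 genes was lower without overlap. Bambi, a decoy receptor and so an antagonist itself, had 1.23, 2.10 and 1.29 CPM in libraries 1 to 3 and 10.97, 11.1 and 10.03 CPM in libraries 4 to 6, and the receptor Bmpr2 had 16.5 CPM in the mean of libraries 1 to 3 and 47.5 CPM in that of 4 to 6. These were the 2 higher genes, and Bmpr2 lies on chromosome 1, whose genes as a whole were higher in the second set (below).

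Of 22 Wnt genes past the filter 13 were 2-fold lower and 0 higher, with a median of -1.22. The ligand Wnt4 had 9.61, 10.4 and 10.8 CPM in libraries 1 to 3 and 0.338, 0.267 and 0.137 CPM in libraries 4 to 6, and Wnt5b had 13.5 ± 0.421 CPM in libraries 1 to 3 and 0.813 ± 0.0736 CPM in 4 to 6. Axin2, a feedback target of beta-catenin, had 5.73, 5.20 and 6.60 CPM in libraries 1 to 3 and 0.271, 0.267 and 0.275 CPM in libraries 4 to 6. Sfrp2, a secreted Wnt-binding protein, had 16.4 ± 0.416 CPM in libraries 1 to 3 and 1.15 ± 0.247 CPM in 4 to 6, so ligands, a target and inhibitors lay in 1 direction. Of 11 Notch genes 6 were 2-fold lower and 0 higher, with a median of -1.15. The ligand Jag1 had 45.7, 44.5 and 46.2 CPM in libraries 1 to 3 and 7.24, 8.21 and 7.35 CPM in libraries 4 to 6. Its target Hey1 had 8.18, 7.42 and 7.01 CPM in libraries 1 to 3 and 1.56, 1.20 and 1.30 CPM in libraries 4 to 6, and Heyl was at least 27.3-fold higher in libraries 1 to 3, with 0 reads in 4 to 6. TGF-beta genes had a smaller median, -0.50, with 2 of 18 past 2-fold lower and 1 higher, the co-receptor Tgfbr3 at 6.19 ± 0.492 CPM in libraries 1 to 3 and 40.9 ± 5.10 CPM in 4 to 6.

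Receptor tyrosine kinase ligands gave no common direction. Fgf10, a mesenchymal ligand for epithelial FGFR2b (chr13:118669791-118792115, plus strand), had 0.204, 0 and 0.0681 CPM in libraries 1 to 3 and 31.3, 32.04 and 31.9 CPM in libraries 4 to 6, so it was close to 0 in the first set and alike in the 3 libraries of the second. Hgf had 17.7, 18.4 and 19.6 CPM in libraries 1 to 3 and 52.1, 56.1 and 53.22 CPM in libraries 4 to 6, and its receptor Met had 84.9, 81.6 and 85.96 CPM in libraries 1 to 3 and 271, 272 and 271 CPM in libraries 4 to 6, of which Met lies on chromosome 6. Hbegf and Ereg, ligands of the EGF receptor, were lower. Hbegf had 12.5 ± 0.580 CPM in libraries 1 to 3 and 2.69 ± 0.0864 CPM in 4 to 6, and Ereg had 58.3 ± 3.04 CPM in libraries 1 to 3 and 25.6 ± 1.98 CPM in 4 to 6. Of 15 FGF genes 2 were higher and 2 lower, with a median of 0.031, and of 15 EGF and PDGF genes 3 were higher and 4 lower, with a median of 0.077. Among guidance genes, 9 of 29 were lower and 2 higher. Sema5a, a transmembrane semaphorin, had 36.9, 38.4 and 41.7 CPM in libraries 1 to 3 and 296, 312 and 287 CPM in libraries 4 to 6, and Sema3c, a secreted one, had 174, 169 and 188 CPM in libraries 1 to 3 and 25.5, 26.8 and 25.4 CPM in libraries 4 to 6.

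Hox genes, which record the position of a tissue along the body axis, differed between sets with the same tissue label. Of 33 Hox genes 19 passed the filter, 11 were 2-fold higher in libraries 4 to 6 and 1 lower, with a median of 1.70 (2.38 over the 13 outside chromosomes 1 and 6), and their summed level was 82.5 to 92.5 CPM in libraries 1 to 3 and 149 to 164 CPM in 4 to 6. Hoxd8 had 1.4996, 1.58 and 1.63 CPM in libraries 1 to 3 and 18.1, 18.02 and 17.2 CPM in libraries 4 to 6. Hoxd9 had 0.0682, 0 and 0.0681 CPM in libraries 1 to 3 and 8.06, 6.94 and 7.004 CPM in libraries 4 to 6, with 2 reads in all of the first set. Hoxa7, on chromosome 6, had 0.886, 1.81 and 1.63 CPM in libraries 1 to 3 and 12.2, 17.2 and 13.5 CPM in libraries 4 to 6. These 3 genes did not overlap between the sets. Hoxd3 was at least 32.5-fold and Hoxd10 at least 15.03-fold higher in the second set, since the first held 0 reads. Hoxb9 went the other way and was at least 25.7-fold higher in the first. In p53, Hoxd8 had 0.193 ± 0.124 CPM and Hoxa7 0.0861 ± 0.0346 CPM (SD, n = 3), below both E20 sets. Of 20 oral and jaw patterning factors past the filter 4 were higher and 3 lower, and Pax9, a factor of tooth and palate, was at least 17.5-fold higher in libraries 1 to 3. Tbx1, a T-box factor of the pharyngeal arches, had 16.97, 21.8 and 19.3 CPM in libraries 1 to 3 and 0.880, 0.534 and 1.10 CPM in libraries 4 to 6.

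Several of the largest differences lay outside these lists. Brinp3, a secreted neural protein on chromosome 1, had 0.204, 0.175 and 0.272 CPM in libraries 1 to 3 and 205, 205 and 195 CPM in libraries 4 to 6. Plac8, a small cysteine-rich protein, had 0.886, 1.17 and 1.57 CPM in libraries 1 to 3 and 321, 304 and 288 CPM in libraries 4 to 6. Steap4, a metalloreductase of inflamed tissue, had 35.8, 36.1 and 35.5 CPM in libraries 1 to 3 and 815, 791 and 745 CPM in libraries 4 to 6. Each of the 3 was higher in every library of 4 to 6 than in any of 1 to 3. Mef2c, a factor of muscle and neural crest, had 0, 0.0584 and 0 CPM in libraries 1 to 3 and 22.5, 22.6 and 20.19 CPM in libraries 4 to 6, where the first set holds 1 read, and p53 had 6.97 ± 0.460 CPM. In the other direction, Gpx3, a secreted glutathione peroxidase, had 54.1, 65.6 and 53.498 CPM in libraries 1 to 3 and 0.271, 0.200 and 0.275 CPM in libraries 4 to 6. Smoc1, a calcium-binding matrix protein, had 49.2, 46.8 and 43.1 CPM in libraries 1 to 3 and 0, 0.0667 and 0.137 CPM in libraries 4 to 6. Gdf10, a ligand of the TGF-beta family, had 32.3, 39.4 and 34.8 CPM in libraries 1 to 3 and 0.271, 0.0667 and 0.0687 CPM in libraries 4 to 6, and p53 had 0 reads of it. All 3 were near 0 in the second set. Ptprf, a receptor phosphatase at cell contacts, had 84.5, 84.1 and 95.7 CPM in libraries 1 to 3 and 1.69, 1.20 and 0.893 CPM in libraries 4 to 6. Dio3, which inactivates thyroid hormone and lies in an imprinted region, had 68.2, 76.6 and 72.7 CPM in libraries 1 to 3 and 0.271, 0.200 and 0.275 CPM in libraries 4 to 6.

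The differences were not spread evenly along the genome. Over 10935 genes with a position on GRCm38 and at least 5 CPM, the median difference was 0.55 (1.46-fold) for the 639 genes of chromosome 1 and 0.55 (1.46-fold) for the 540 genes of chromosome 6. The other 18 chromosomes, X included, had medians from -0.066 to 0.071. On chromosome 1, 88.9% of genes were higher in libraries 4 to 6, and on chromosome 6 88.7%, so the whole chromosomes and not a few genes lay above 0. Chromosomes 1 and 6 hold 10.8% of these genes but 34.6% of the 2-fold higher ones (188 of 543) and 5.59% of the 2-fold lower ones (25 of 447). Set against the p53 libraries, the median of chromosome 1 was -0.035 in libraries 1 to 3 and 0.51 in 4 to 6, and that of chromosome 6 was -0.084 and 0.46. Both comparisons share the p53 libraries. Against WT the medians of chromosome 1 were 0.11 and 0.59.

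**Figure D3:**
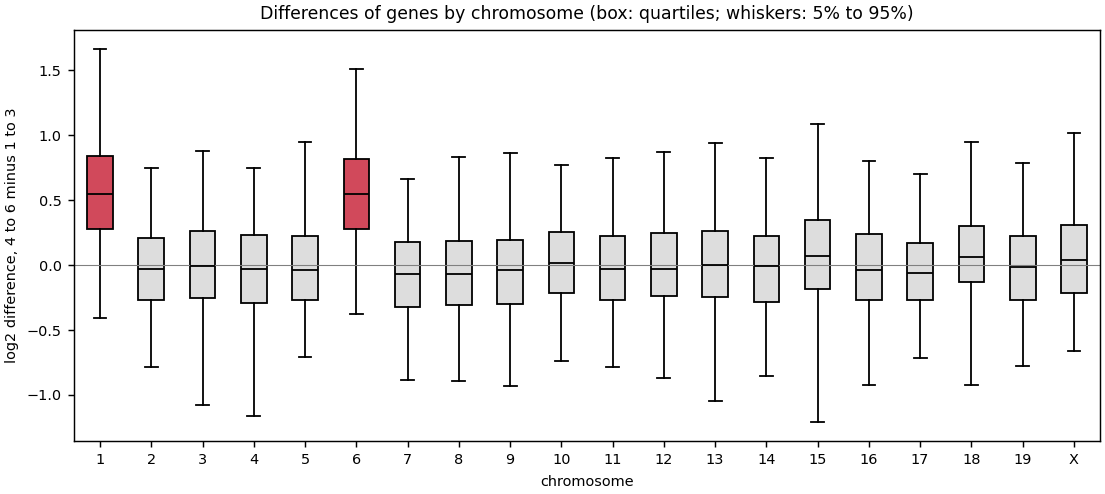
Log2 difference of genes at 5 CPM or more, E20 libraries 4 to 6 minus 1 to 3, by chromosome (line: median, box: quartiles, whiskers: 5th to 95th percentile). Chromosomes 1 and 6, in red, have medians of 0.55, and the other 18 lie between -0.066 and 0.071.

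A stretch of chromosome 4 lay lower. At the end of chromosome 4 (chr4:151933691-156247616), 47 of 49 genes from Dnajc11 to Noc2l were below 0, 27 of them 2-fold, with a median of -1.02, which is 0.494 times the level of libraries 1 to 3. The start of this stretch was chosen after its values were seen. The 49 genes before it had a median of 0.15, and the 633 genes of the rest of the chromosome -0.0045. Ski, a repressor of TGF-beta signalling, had 195, 197 and 195 CPM in libraries 1 to 3 and 91.8, 94.8 and 96.7 CPM in libraries 4 to 6. Rpl22, a ribosomal protein, had 337, 358 and 332 CPM in libraries 1 to 3 and 173, 171 and 165 CPM in libraries 4 to 6. Gnb1, a G protein beta subunit, had 560.4, 573 and 539.6 CPM in libraries 1 to 3 and 326, 329 and 308 CPM in libraries 4 to 6. Their differences were -1.05 for Ski, -1.01 for Rpl22 and -0.798 for Gnb1, where the quartiles of the stretch were -1.16 and -0.804. Ski, Rpl22 and Gnb1 were chosen after their values were seen, so they are no support for a shift of the whole stretch. Other genes lay farther from its median, such as Megf6 (-3.92), Fndc10 (-3.70) and Kcnab2 (-0.12), and Agrn (0.16) and Isg15 (0.45) were the 2 above 0. Against p53 the median of the stretch was -0.026 in libraries 1 to 3 and -1.04 in 4 to 6.

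In running medians over 21 neighbouring genes, 508 of 619 windows of chromosome 1 and 432 of 520 of chromosome 6 lay above 0.45, 40 of 662 windows of chromosome 4 lay below -0.45, and none on the other 17 chromosomes did either. Between E20/p53 libraries 4 to 6 and 1 to 3, chromosome medians ranged from -0.74 (chromosome 12) to 0.53 (chromosome 15), so sets of that genotype differed by chromosome too, in the same direction as E20 on chromosome 1 (0.30) and in the opposite one on chromosome 6 (-0.22). DNA copy number was not measured.

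**Figure D4:**
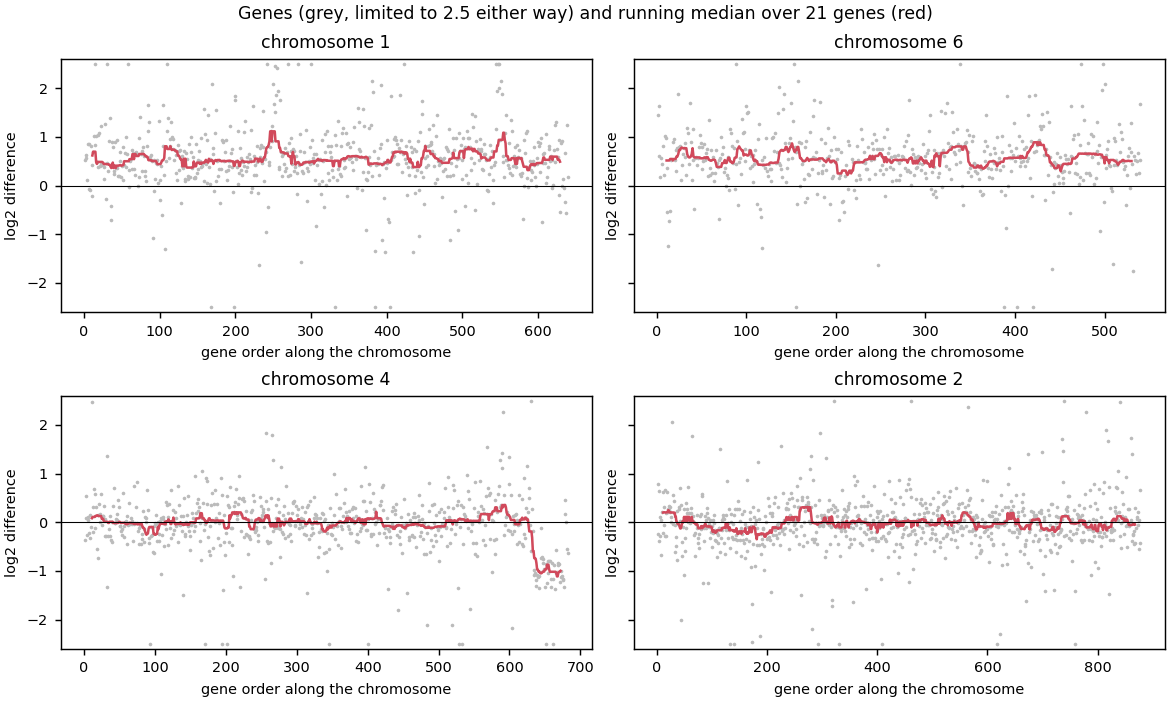
Log2 difference of single genes (grey) in their order along chromosomes 1, 6, 4 and 2, with the running median over 21 genes (red). The line stays above 0 along chromosomes 1 and 6, drops to near -1 at the end of chromosome 4, and stays near 0 along chromosome 2, shown for comparison.

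The labelled groups were tested with the 6 E20 libraries together and with either set left out, using limma over 15235 genes with Benjamini-Hochberg adjustment. These p-values measure only the spread between libraries, and E20 and p53 also differ in Xist and Eif2s3y as given above, whose part in the calls was not tested. E20 against p53 called 2205 genes higher (14.5%) and 2504 lower (16.4%), 30.9% of those tested. With libraries 4 to 6 alone 2923 were higher (19.2%) and 3257 lower (21.4%), 40.6% in all. With libraries 1 to 3 alone 2084 were higher (13.7%) and 2337 lower (15.3%), 29% in all. Both of these share the p53 libraries. The E20 sets were chosen by these same values, and fitting 1 set alone takes the difference between them out of the spread. Counts with either set left out, here and below, are therefore a description and no test. With the mean of each set of 3 as 1 observation, limma called 0 genes in either direction, and 629 had an unadjusted p under 0.05. That fit on set means had 2 residual degrees of freedom, so neither number says how many genes differ. E20/p53 against E20 called 3502 genes higher (23%) and 2989 lower (19.6%), 42.6% in all. Against libraries 1 to 3 alone 5826 genes were called in both directions together (38.2%), of which 2690 were lower (17.7%). Against libraries 4 to 6 alone 3674 were higher (24.1%) and 3161 lower (20.7%), 44.9% in all. In each of these fits the E20/p53 group is itself a mean of 2 unlike sets. Its fibroblast list summed to 473 to 504 CPM in E20/p53 libraries 1 to 3 and 20426 to 22419 CPM in 4 to 6. The part of that split in these calls was not tested.

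The change with each choice of E20 libraries is given for 8 genes, chosen after their values were seen. Since the sets were seen in these data too, the values for either set alone are a description, with no p. Fgf10 in E20 against p53 was -1.53 (SE 1.85, adjusted p = 0.574) with all 6, -5.50 (SE 0.92) with libraries 1 to 3 and 2.44 (SE 0.84) with 4 to 6, by limma. The 6 together did not pass the threshold, and the values for the sets have opposite signs, which was known when this gene was chosen. Smarca1, a chromatin remodelling ATPase, likewise gave 1.09 (SE 1.17, adjusted p = 0.517) with all 6, -1.58 (SE 0.22) and 3.77 (SE 0.17). Fst gave -1.08 (SE 1.10, adjusted p = 0.492), 1.42 (SE 0.23) and -3.58 (SE 0.26), in the reverse order of signs. The p53 level of each of these 3 genes lay between those of the 2 E20 sets. Igfbp2 gave -4.52 (SE 1.63, adjusted p = 0.0455), -0.89 (SE 0.60) and -8.14 (SE 0.63), and the call on all 6 is lost without any 1 of libraries 4 to 6 or of p53. It is also lost without the filter on low values (adjusted p = 0.0719 by limma) and with the 2 groups fitted alone (adjusted p = 0.111). Stard4 gave 1.76 (SE 0.59, adjusted p = 0.0329), 0.72 (SE 0.50) and 2.79 (SE 0.50), and its call is lost without the same libraries and without the filter (adjusted p = 0.0524 by limma). Oas2 gave 1.83 (SE 0.75, adjusted p = 0.0741), 0.27 (SE 0.43) and 3.39 (SE 0.41). Mmp13 passed with all 6, and had 6.52 (SE 1.37, adjusted p = 0.00182), 3.60 (SE 0.72) and 9.44 (SE 0.71). Pik3ca gave -0.17 (SE 0.086, adjusted p = 0.144), -0.32 (SE 0.067) and -0.025 (SE 0.067).

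In E20/p53 against E20 the E20 libraries are the same, so these values are no independent support. Fgf10 was -0.031 (SE 1.51, adjusted p = 0.989) with all 6 E20 libraries, 3.94 (SE 0.80) against libraries 1 to 3 and -4.00 (SE 0.73) against 4 to 6, by limma. Smarca1 was 1.06 (SE 0.95, adjusted p = 0.389), 3.74 (SE 0.19) and -1.62 (SE 0.14). Fst was -0.78 (SE 0.89, adjusted p = 0.507), -3.28 (SE 0.20) and 1.72 (SE 0.23). For these 3 genes the opposite signs for the sets were likewise known when they were chosen. Oas2 fell against all 6, and had -8.83 (SE 0.61, adjusted p = 1.52e-08), -7.27 (SE 0.37) and -10.38 (SE 0.36), and was near 0 in the E20/p53 libraries. Igfbp2 was 3.81 (SE 1.33, adjusted p = 0.0301), 0.19 (SE 0.52) and 7.43 (SE 0.54), and its call on all 6 is lost without any 1 of libraries 4 to 6 of E20 or of E20/p53, and with the 2 groups fitted alone (adjusted p = 0.0771 by limma). Whether the estimates from the 2 sets differ was not tested, since the sets were seen in these data.

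**Figure D5:**
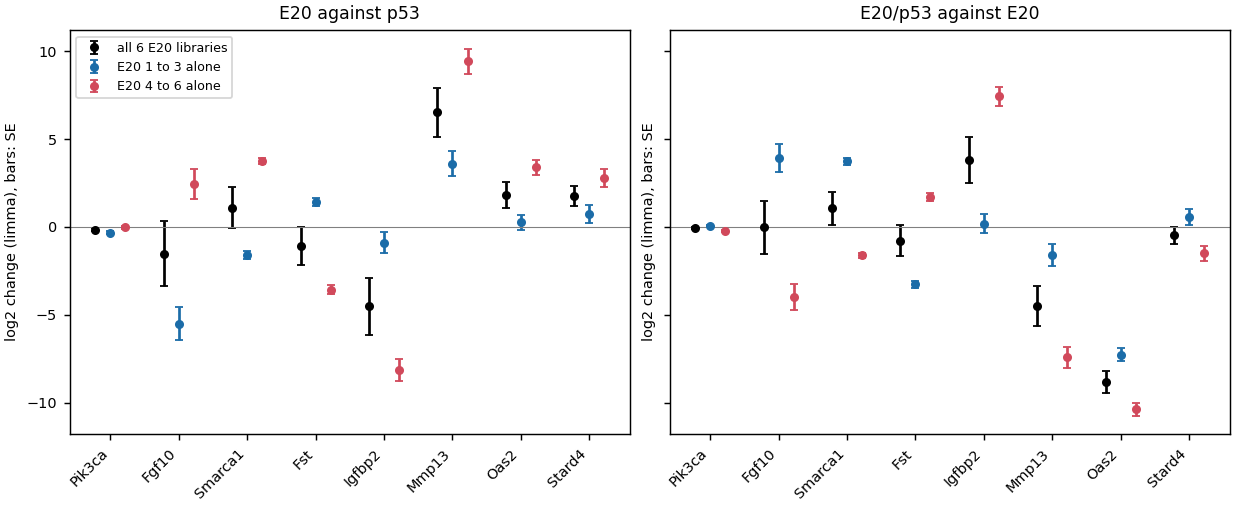
Log2 change by limma of 8 genes in E20 against p53 (left) and E20/p53 against E20 (right), with all 6 E20 libraries (black), libraries 1 to 3 alone (blue) and 4 to 6 alone (red), and bars of 1 SE. Fgf10, Smarca1 and Fst lie on opposite sides of 0 for the 2 sets in both panels.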

How the data were processed

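RNA of 18 mouse libraries was sequenced after the TruSeq Stranded mRNA LT kit, per the labels' protocols. The submitters' processing notes name bcl2fastq 1.8.4, Trimmomatic, featureCounts and the build mm10. What aligned the reads, which annotation was used and how totals were scaled is not stated in the labels or the notes. The authors deposited log2 values for 26143 genes, although the table is named as counts. A value is the log2 ratio of reads plus 1 to a scaled total of its library: undoing this gave whole reads to within 0.001 for 100% of values. The totals were 0.939 to 1.12 times the summed reads, and CPM here refers to them.

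The E20 sets, the gene lists and the named genes were chosen with earlier results of these data known. A gene was called different between the sets when the 3 and 3 libraries did not overlap and the mean log2 values differed by at least 1, with no test. Named genes were 10 set genes (Pik3ca, Trp53 and the markers among them), the 20 higher and 20 lower genes with the largest difference at 10 CPM or more in the higher set, and up to 6 genes per list at 5 CPM or more. The second kind leaves out predicted and RIKEN genes, pseudogenes and antigen receptors. Other list members are named to fill in a pathway, and the chromosome 4 genes were chosen after their values were seen. Not all genes under the rule are described, and some members of the lists are not reported here. Genes of families with near-identical copies, such as Oas1g, are uncertain where counting could split reads. Folds are ratios of mean CPM, and a fold against 0 reads is a bound at 3 reads over the set. No fold is given where a set held 1 to 3 reads.

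The labelled groups were tested with limma 3.58.1 in R 4.3.3 (mean-variance trend, 1 mean per group over 18 libraries, Benjamini-Hochberg, adjusted p under 0.05), which was checked on simulated data. Positions come from GENCODE M21 on GRCm38, the build of mm10, and promoters from RefSeq on GRCm38.p6. Alternatives were TMM and median ratio scaling, offsets, filters, a 4-fold minimum, the compared groups alone, a replicate block, set means, and each library or E20 set left out.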

Additional observations from a re-analysis of the deposited data

How the results depend on the processing

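Between the E20 sets, 849 genes were 2-fold higher in libraries 4 to 6 and 1139 lower. Without a filter on low values 1868 genes were lower, at a minimum of 5 CPM 586, and at 4-fold 215 were higher and 597 lower. Leaving out each library gave 837 to 897 higher and 1128 to 1165 lower. Without chromosomes 1 and 6 and the end of chromosome 4, an alternative chosen after seeing the data, 606 were higher and 1022 lower. All 167 named genes past 2-fold kept their sign under the other scalings, filters and offset and without any 1 library, and 141 of 141 did so without those chromosomes. These genes were chosen for a 2-fold difference without overlap, so leaving out 1 library or other genes could not turn a sign. The kept signs are therefore no support. TMM factors moved the median of all genes to -0.018 and median ratio factors to -0.0038.

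With the mean of each set as 1 observation, E20 against p53 called 0 higher and 0 lower, and E20/p53 against E20 called 0 higher and 0 lower (973 at an unadjusted p under 0.05). The fits on set means had 2 residual degrees of freedom, so these counts do not say how many genes differ. Without a filter, 7870 genes were lower in E20/p53 against E20, and the cause was not tested. Leaving out each library gave 1533 to 2204 higher and 1771 to 2579 lower in E20 against p53, and 3165 to 3644 and 2672 to 3207 in E20/p53 against E20.

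Signs turned in E20 against p53 for Fgf10 without libraries 1 to 3 (2.44) and without libraries 4 to 6 for Smarca1 (-1.58) and Fst (1.42). In E20/p53 against E20 they turned without libraries 1 to 3 for Smarca1 (-1.62) and Fst (1.72), and without 4 to 6 for Pik3ca (0.078), Fgf10 (3.94) and Stard4 (0.57). Fgf10 there, at -0.031 with all libraries, ran from -1.05 to 0.77 over the fits without 1 library, and from 0.19 upwards without any 1 of libraries 4 to 6 of either group.

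Deviations of same-numbered libraries from the means of their labelled groups correlated with r of -0.042 to 0.074. In E20 and E20/p53 these deviations hold the difference between the sets. They therefore cannot show whether the numbers pair libraries. With a replicate block, E20 against p53 called 2707 higher and 2957 lower, with Smarca1 at -0.30 and Fst at 0.0025 and the calls of Igfbp2 (adjusted p = 0.201) and Stard4 (adjusted p = 0.111) lost, and E20/p53 against E20 called 3935 and 3332.

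Depth limits genes with few reads: a set with 0 reads allows up to 3, which accounts for counting error and not for PCR copies.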

Other observations

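Other genes separated the E20 sets and were not described above. Of 16 integrin genes past the filter, 2 were at least 2-fold lower in libraries 4 to 6 and 1 higher, with a median of -0.45. Itga9, an integrin subunit that binds tenascin, had 6.95, 8.65 and 8.85 CPM in libraries 1 to 3 and 0.203, 0.133 and 0.412 CPM in libraries 4 to 6, and Itga1, a subunit that binds collagen, had 24.3 ± 1.69 CPM in libraries 1 to 3 and 6.61 ± 0.320 CPM in 4 to 6 (SD, n = 3 each). Itgb3, a subunit of the vitronectin receptor, was the higher gene, with 21.7, 22.3 and 24.2 CPM in libraries 1 to 3 and 60.4, 48.4 and 51.6 CPM in libraries 4 to 6. Nrp2, a co-receptor for semaphorins and VEGF-C that lies on chromosome 1, had 129, 130.1 and 139 CPM in libraries 1 to 3 and 618, 565 and 520.0 CPM in libraries 4 to 6. Of 11 NRF2 targets 2 were lower and 0 higher, which were the haem oxygenase Hmox1 at 436 ± 26.4 CPM in libraries 1 to 3 and 212 ± 2.27 CPM in 4 to 6 and the quinone reductase Nqo1 at 451 ± 17.4 CPM in libraries 1 to 3 and 222 ± 3.12 CPM in 4 to 6. Both differed by about the 2-fold minimum. Among 14 imprinted growth genes past the filter 4 were lower and 1 higher: Slc22a18, a transporter, had 4.02, 6.13 and 5.45 CPM in libraries 1 to 3 and 0.0677, 0.200 and 0 CPM in libraries 4 to 6, and the retrotransposon-derived Peg10, on chromosome 6, had 119, 123 and 129 CPM in libraries 1 to 3 and 249, 254 and 253 CPM in libraries 4 to 6.

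Unfolded protein and integrated stress genes had a median of 0.24, with 0 of 16 past 2-fold. Of 15 immediate early genes, which respond to tissue handling, 2 were lower and 0 higher, with a median of -0.20, and the summed level was 664 to 730.5 CPM in libraries 1 to 3 and 559 to 588 CPM in 4 to 6. Haemoglobin and other blood genes had 0.204 to 0.701 CPM in libraries 1 to 3 and 0.601 to 0.812 CPM in 4 to 6 in sum, and none passed the filter. Markers of adipocytes summed to 66.5 to 69.1 CPM in libraries 1 to 3 and 26.2 to 29.99 CPM in 4 to 6, and those of Schwann and neural cells to 812 to 875 CPM in libraries 1 to 3 and 367 to 379 CPM in 4 to 6. In the latter, Nes, the intermediate filament nestin, had 526, 542 and 573 CPM in libraries 1 to 3 and 190.3, 193 and 188 CPM in libraries 4 to 6, and Tubb3, a neuronal tubulin, had 55.5 ± 0.893 CPM in libraries 1 to 3 and 8.78 ± 0.671 CPM in 4 to 6. Il33, an alarmin, had 22.1, 20.9 and 22.3 CPM in libraries 1 to 3 and 71.8, 71.2 and 69.5 CPM in libraries 4 to 6. In E20 libraries 4 to 6 its level lay above that of p53, 53.41 ± 3.72 CPM, and in libraries 1 to 3 below it.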
